A study of Mus musculus with 6 samples.

Results

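The 5 gene loci described here hold Tet2 and Tet3, which encode enzymes that oxidise 5-methylcytosine (5mC) to 5-hydroxymethylcytosine (5hmC), and Dnmt1, Dnmt3a and Dnmt3b, which encode enzymes that place or maintain 5mC. Their members are the peaks of 6 deposited lists that touch fixed intervals on the mouse build mm9. These intervals are chr3:133115000-133220000 for Tet2, chr6:83300000-83420000 for Tet3, chr9:20700000-20770000 for Dnmt1, chr12:3795000-3925000 for Dnmt3a and chr2:153460000-153525000 for Dnmt3b. The intervals held 375 of the 663518 peaks of the 6 lists, or 0.0565%. Of these peaks, 39 were at Tet2, 114 at Tet3, 86 at Dnmt1, 113 at Dnmt3a and 23 at Dnmt3b, and 11 crossed an end of an interval.

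Both marks were profiled at 3 stages of reprogramming in mouse cells of the strain OG2-GFP/Rosa26-M2rtTA, which carries a green fluorescent reporter (OG2) and the doxycycline-responsive activator M2rtTA at the Rosa26 locus. Fibroblasts at passage 4 came from mice made from TSKM iPS cells, named for the factors Tet1, Sox2, Klf4 and c-Myc. Day-3 cells were such fibroblasts of passage 4 kept for 3 days in ES medium with doxycycline, which switches the factors on. The third stage was a TSKM iPS line at passage 10 to 15, grown in ES medium on mitomycin C-treated feeder fibroblasts, which a short plating step was meant to remove. The cells at all 3 stages carried the inducible factors, and none of the 5 genes is one of them. The medium changed together with the drug, so at day 3 their effects cannot be told apart. Each stage and mark had 1 library, with a polyclonal antibody for 5hmC and a monoclonal antibody for 5mC. There was therefore no replicate error, no test between stages was possible, and every difference below compares single libraries.

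TET enzymes turn 5mC into 5hmC and further oxidised bases, which can be removed by repair or lost at replication. Dnmt1 copies methylation to the new strand after replication, while Dnmt3a and Dnmt3b methylate DNA that carried no mark. Dnmt3b is highly expressed in embryonic and pluripotent cells. The 5hmC and 5mC described here are marks on the genes that encode these enzymes. The files hold no RNA or protein, so neither the activity of the genes nor the labelled cell types could be checked against expression.

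Immunoprecipitation of modified DNA depends on how many modified CpG pairs a fragment carries, and the starts of these genes differ widely in CpG number. Among 32851 RefSeq promoters on GRCm38.p6, each spanning 300 bases around a start, the median held 7 CpG. The Tet2 promoter held 57, a number that 0.152% of the promoters reached. The Tet3 promoter held 22, that of Dnmt3b held 30, the 3 starts of Dnmt3a held 46, 47 and 18, and the 3 starts of Dnmt1 held 33, 12 and 2. Shown in full are the promoter richest in CpG (Tet2), the poorest (1 of the Dnmt1 starts) and that of the locus with the fewest peaks (Dnmt3b), 5′ to 3′ in the direction of the gene and with each CpG in capitals. The motif searched was CG, which reads the same on both strands. The regions are chr3:133544341-133544640 on the minus strand for Tet2, chr9:20959839-20960138 on the minus strand for Dnmt1, and chr2:153649199-153649498 on the plus strand for Dnmt3b. They are given on GRCm38.p6 and were not placed among the mm9 peaks.
Tet2: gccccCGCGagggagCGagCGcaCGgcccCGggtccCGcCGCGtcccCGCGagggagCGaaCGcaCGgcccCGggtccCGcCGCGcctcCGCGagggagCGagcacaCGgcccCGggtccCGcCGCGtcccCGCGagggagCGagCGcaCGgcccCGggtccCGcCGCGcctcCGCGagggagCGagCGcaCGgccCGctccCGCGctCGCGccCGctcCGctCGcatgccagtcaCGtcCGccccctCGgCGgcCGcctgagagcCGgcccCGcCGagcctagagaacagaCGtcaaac
Dnmt1: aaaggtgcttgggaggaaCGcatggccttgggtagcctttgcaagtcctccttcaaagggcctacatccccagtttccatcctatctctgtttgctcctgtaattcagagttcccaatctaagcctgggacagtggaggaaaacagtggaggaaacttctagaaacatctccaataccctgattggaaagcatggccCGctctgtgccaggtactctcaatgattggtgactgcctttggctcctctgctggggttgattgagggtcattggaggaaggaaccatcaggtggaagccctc
Dnmt3b: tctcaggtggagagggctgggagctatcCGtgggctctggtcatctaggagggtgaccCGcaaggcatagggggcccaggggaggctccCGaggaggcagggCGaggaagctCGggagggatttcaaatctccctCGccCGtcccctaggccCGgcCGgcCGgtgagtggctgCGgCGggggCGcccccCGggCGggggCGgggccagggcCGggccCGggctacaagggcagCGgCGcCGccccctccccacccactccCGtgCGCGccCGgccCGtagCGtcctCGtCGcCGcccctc

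The intervals are longer than the genes, and their ends reach toward or into the next coding genes. In the RefSeq table of GRCm38.p6 these were Ppa2 and Cxxc4 beside Tet2, Bola3 and Dguok beside Tet3, Eif3g and S1pr2 beside Dnmt1, Dtnb and Pomc beside Dnmt3a, and Commd7 and Mapre1 beside Dnmt3b. No other coding gene overlapped any of the 5. At Dnmt1 the excess of the interval over the gene is larger than both gaps together, so that interval reaches into a neighbour. At Tet3 the gap to Bola3 is 2.24 kb, so the lower end of its interval may hold part of Bola3. Where the genes lie within the mm9 intervals was not checked. Tet2, Tet3 and Dnmt1 lie on the minus strand there, so that their promoter ends point to the higher coordinates of the interval. No mm9 annotation was used here, and peaks were not assigned to promoters, exons, introns or untranslated regions.

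The lists themselves changed in length. The 5hmC peaks covered 3.54 times the fibroblast length at day 3 and 5.19 times in iPS cells, and the 5mC peaks covered 1.54 times and 0.539 times. The number of reads behind each list is unknown, and a deeper library yields more peaks. Values of the loci are therefore set beside all autosomes in the same list, and beside the 21459 autosomal windows of 100 kb that held any peak. The loci are 65 to 130 kb long, so a window is of like size but not equal.

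Together the 5 loci carried far more of both marks than the autosomes at large, except for 5hmC in fibroblasts. The fibroblast list had 11 5hmC peaks at the loci, the day-3 list 75 and the iPS list 94. They covered 8.48, 94.4 and 119 kb, which is 1.73, 19.3 and 24.4% of the intervals, against 1.47, 5.23 and 7.71% of the autosomes. Peaks of 5mC were 62, 92 and 41 in number and covered 79.8, 109 and 48.4 kb. Those lengths are 16.3, 22.2 and 9.88% of the intervals, against 4.58, 7.02 and 2.46% of the autosomes. The excess was uneven: Dnmt1, Tet3 and Dnmt3a held most of it, and Tet2 and Dnmt3b little. The autosomes were not matched to the loci in gene or CpG content, whose part in the excess was not tested.

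**Figure D1:**
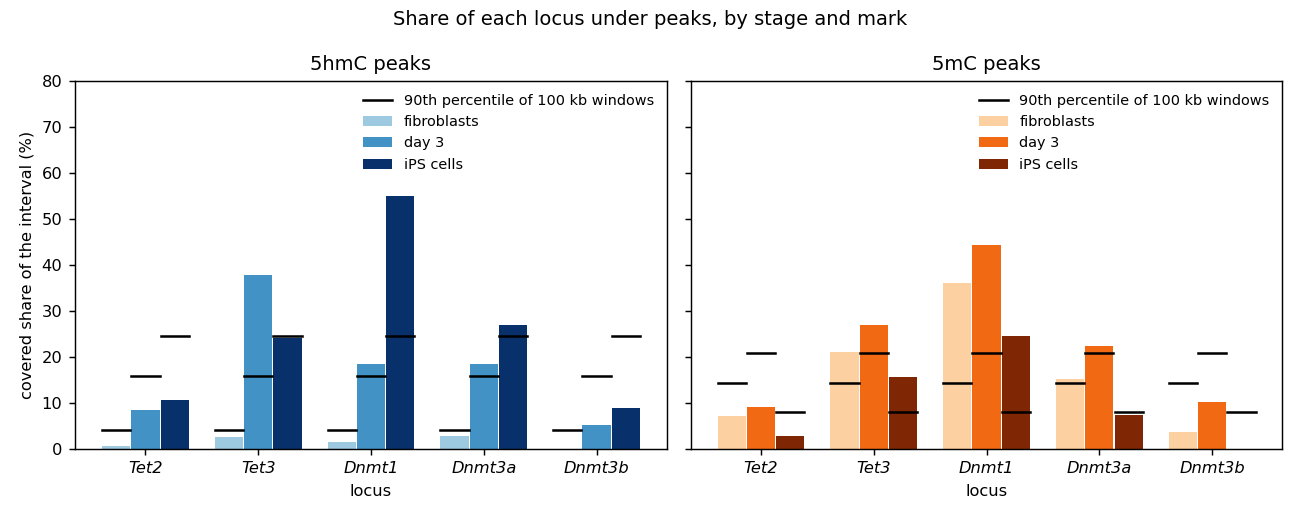
Share of each interval under 5hmC peaks and under 5mC peaks (%) at Tet2, Tet3, Dnmt1, Dnmt3a and Dnmt3b, 1 bar per stage and 1 library per bar, and a black line at the 90th percentile of the autosomal 100 kb windows in that list. Dnmt1 had the highest bars for 5mC at each stage and for 5hmC in iPS cells (55.1%), Tet3 had the highest 5hmC bar at day 3 (37.7%), and Dnmt3b was listed at 0 for 5hmC in fibroblasts and for 5mC in iPS cells.

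At Tet3, the TET family member known from the egg and early zygote, 5hmC was broadest at day 3. It had 4 fibroblast, 29 day-3 and 22 iPS peaks of 5hmC, which covered 2.65, 37.7 and 24.1% of the interval. These shares were above 78.4, 99.3 and 89.5% of the windows. In raw covered length, Tet3 was the single locus of the 5 with less 5hmC in iPS cells than at day 3, while Tet2 and, barely (log2 fold -0.0020), Dnmt3a joined it once lengths were divided by that of the list. Peaks of 5mC were 19, 25 and 15 in number and covered 21.0, 26.9 and 15.7%, above 96.2, 95 and 98.5% of the windows. The locus was thus among the windows richest in 5mC at every stage.

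At Tet3, 16 of the 29 day-3 5hmC peaks met no 5mC peak of any stage (55.2%), as did 56.1% in the genome. The longest stretch of the locus without 5mC at any stage, chosen after its values were seen, was chr6:83361655-83388786, 27.1 kb long and 61.7 to 88.8 kb from the start of the interval, toward the promoter end of the gene. 5hmC covered 1.75 kb of it in iPS cells and 19.1 kb (70.4%) at day 3, and none in fibroblasts. The 10 day-3 peaks that touched it included the widest of that list at the locus, chr6:83370229-83374177 (3949 bp), which met a peak in 1 other list. In the 10 kb stretches from 60 to 90 kb, day-3 5hmC covered 7.28, 7.23 and 6.36 kb. In iPS cells 5hmC covered 0.820, 0.975 and 1.75 kb of the same stretches.

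The other end of the Tet3 interval carried both marks at later stages. The 10 kb with the largest 5hmC gain between fibroblasts and iPS cells was chr6:83310000-83319999, with 7.37 kb in iPS cells, 5.30 kb at day 3 and none in fibroblasts. The best-scoring day-3 peak (chr6:83317408-83319560) lay there, and so did most of the best-scoring and widest iPS peak (chr6:83316047-83320981, 4935 bp). 5mC covered 4.38 kb of that stretch in iPS cells, 6.94 kb at day 3 and 6.07 kb in fibroblasts. A merged region near 52 kb held peaks of all 6 lists, but its fibroblast 5hmC peak (chr6:83353569-83354448) did not itself overlap the day-3 5hmC peaks beside it. Its 5mC peak was the best-scoring and widest at Tet3 in each 5mC list, at chr6:83352071-83355613 in fibroblasts, and it met a peak in all 5 other lists. The largest 5mC loss was at chr6:83300000-83309999, with 2.41 kb in iPS cells and 5.10 kb in fibroblasts, and the largest 5mC gain was 1.01 kb at chr6:83350000-83359999. The stretch with the loss is at the end of the interval toward Bola3 and may lie outside Tet3.

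Tet2, whose product is known as a tumour suppressor of blood cells, lay nearer the genome's level over its 105 kb. Its peak density was 1.19 to 1.6 times that of the autosomes in 5 lists and 0.548 times in the fibroblast 5hmC list. It had 1 fibroblast, 8 day-3 and 9 iPS peaks of 5hmC, which covered 0.684, 8.50 and 10.6% of the interval. The shares were above 34.6, 74.5 and 68.4% of the windows, so Tet2 did not stand out from the genome in 5hmC. Its 5mC peaks, 7, 10 and 4 in number, covered 7.08, 9.17 and 2.80%, above 73.0, 67.4 and 66.7% of the windows. A stretch of 24.0 kb, chr3:133151706-133175687, held no peak in any list.

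The 5hmC of Tet2 lay mostly in different places at day 3 and in iPS cells. Of 15 regions formed by merging overlapping 5hmC peaks of the 3 stages, 6 were found at day 3 alone, 6 in iPS cells alone, 2 at both and 1 in fibroblasts and iPS cells. Counted by peaks, 6 of 8 day-3 peaks met no other 5hmC list (Wilson interval 40.9 to 92.9%, against 49.3% in the genome). Day-3 5hmC was met by 2 of 9 iPS peaks (6.32 to 54.7%, against 32.9% in the genome). Both intervals include the share of the genome, so these counts do not set Tet2 apart from it. The longest stretch without 5mC at any stage, chr3:133177847-133217525 (39.7 kb, chosen after its values were seen), held 0.206 kb of 5hmC in iPS cells and 7.78 kb at day 3. Its day-3 peaks included the best-scoring and widest one, chr3:133212567-133214710 (2144 bp), which met no peak in any other list. The best-scoring and widest iPS peak, chr3:133128849-133131516 (2668 bp), lay near the other end and over the widest fibroblast 5mC peak, chr3:133129031-133131517. It fell in the 10 kb with the largest 5hmC gain, chr3:133125000-133134999, where 5hmC covered 3.61 kb in iPS cells and none in fibroblasts. The single fibroblast 5hmC peak, chr3:133175788-133176505, met peaks in 4 other lists. The largest 5hmC loss was at chr3:133175000-133184999, with 0.573 kb in iPS cells, 3.90 kb at day 3 and 0.718 kb in fibroblasts. The iPS minus fibroblast difference was -0.145 kb, and the fibroblast peak there met an iPS 5hmC peak. The largest 5mC loss was at chr3:133145000-133154999, listed at 0 in iPS cells and at 1.94 kb in fibroblasts.

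**Figure D2:**
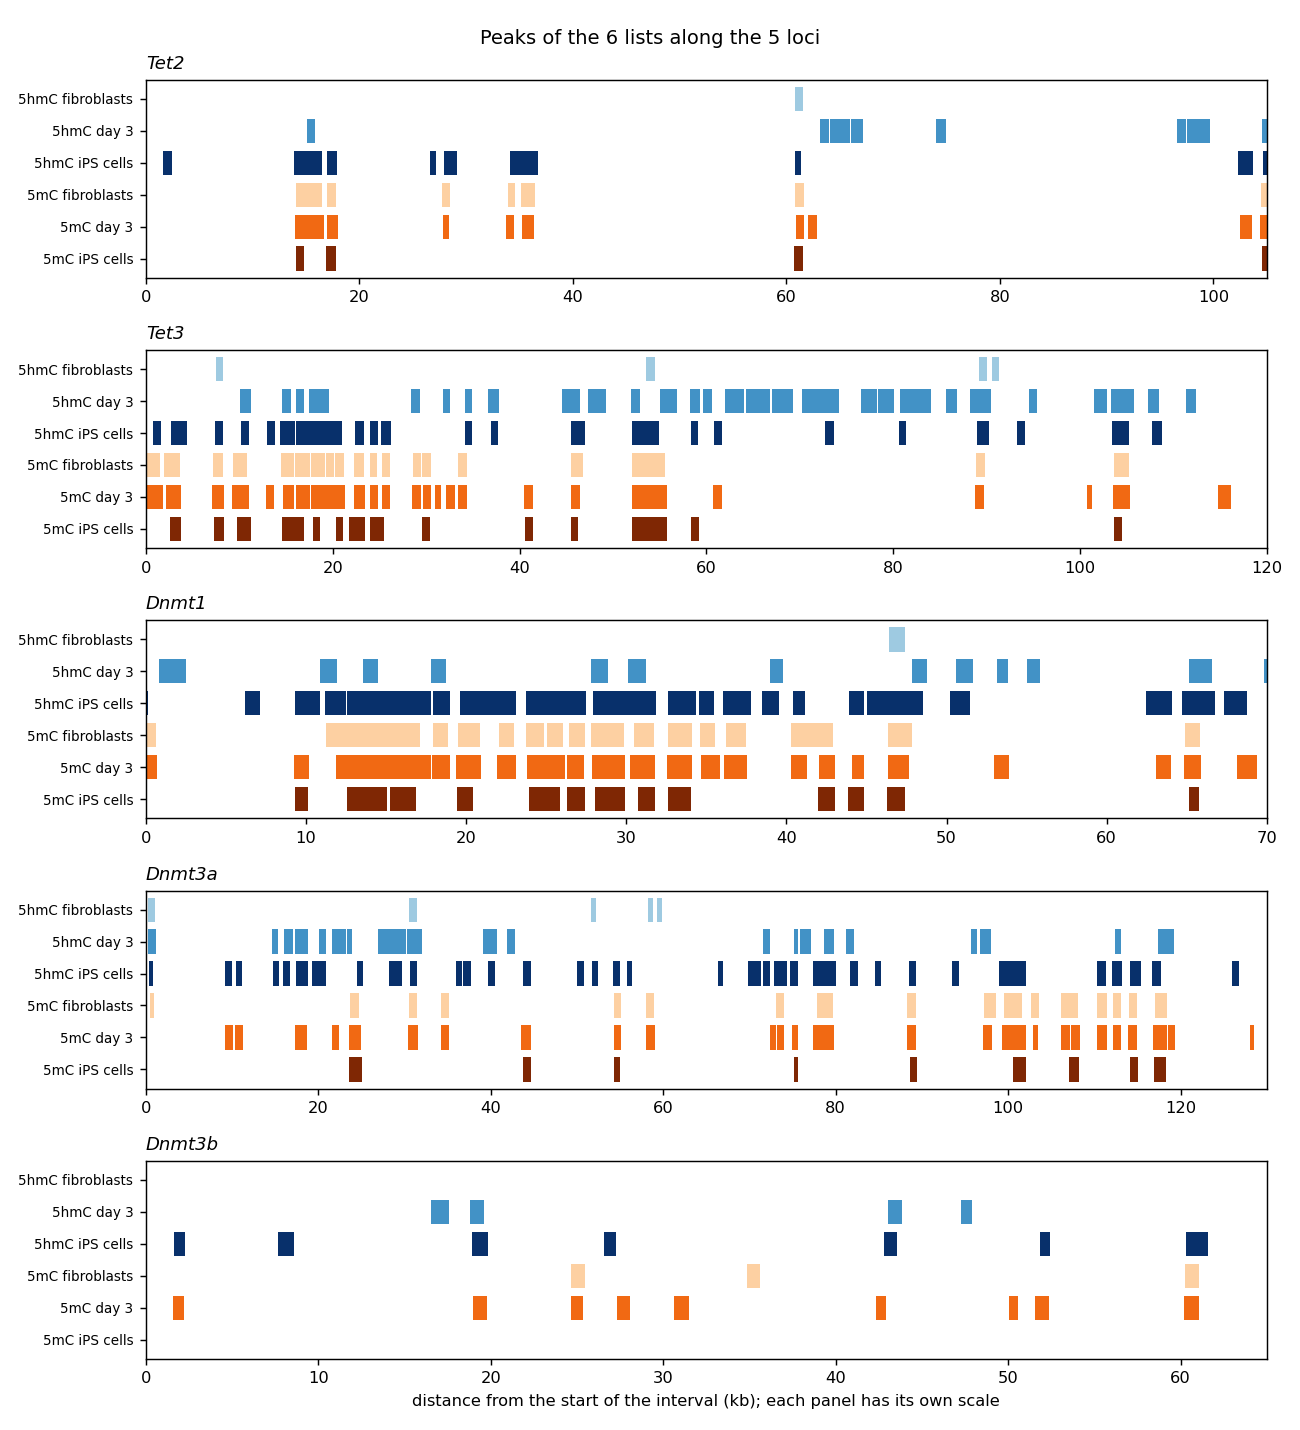
Peaks of the 6 lists along each of the 5 intervals, with distance from the interval start (kb) on the x axis and 1 row per mark and stage. Day-3 5hmC filled the Tet3 stretch from about 62 to 89 kb, where no 5mC was listed, and iPS 5hmC filled much of the first 50 kb of Dnmt1, where 5mC peaks of each stage were listed as well.

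Dnmt1, the maintenance methyltransferase, carried the densest 5mC of the 5 loci at each stage and the densest 5hmC in iPS cells. The lists held 1 fibroblast, 14 day-3 and 21 iPS peaks of 5hmC, which covered 1.45, 18.4 and 55.1% of the interval. These shares were above 57.4, 92.7 and 99.8% of the windows. Those of 5mC, 16, 21 and 13 in number, covered 36.0, 44.2 and 24.6%, above 99.7, 99.6 and 99.8% of the windows. Its 5mC share was 7.87, 6.30 and 10 times that of the autosomes at the 3 stages, and its 5hmC share was 0.981, 3.52 and 7.14 times.

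Of the 21 iPS 5hmC peaks of Dnmt1, 14 lay on fibroblast 5mC (66.7%, against 39.9% in the genome). On 5mC of either earlier stage lay 18 of them (85.7%, against 56.9%). Fibroblast 5mC covered 36.0% of this interval, against 4.58% of the autosomes, and day-3 5mC covered 44.2%, against 7.02%. These 21 peaks were also wider than their list, with a median of 1455 bp against 906 bp. The part of this density and width in the shares was not tested. From 10 to 50 kb, successive 10 kb stretches held 8.90, 8.99, 7.37 and 5.15 kb of 5hmC in iPS cells. The same stretches held 7.32, 7.14, 4.97 and 4.18 kb of 5mC in fibroblasts. The second of them, chr9:20720000-20729999, had the largest 5hmC gain, with 8.99 kb in iPS cells, 1.07 kb at day 3 and none in fibroblasts. The best-scoring and widest iPS 5hmC peak, chr9:20712582-20717790 (5209 bp), lay over the widest fibroblast 5mC peak, chr9:20711252-20717121 (5870 bp). The widest 5mC peak there was 5946 bp long at day 3 and 2538 bp in iPS cells, so the iPS 5mC peak was shorter than the 5hmC peak over it. The largest 5mC loss was at chr9:20730000-20739999, with 2.47 kb in iPS cells and 4.97 kb in fibroblasts. The best-scoring day-3 5hmC peak, chr9:20700839-20702489, lay near the interval start and met no other list. It is at the end of the interval toward Eif3g and may lie outside Dnmt1. The single fibroblast 5hmC peak, chr9:20746382-20747393, lay in a merged region with peaks of all 6 lists, but did not itself overlap the day-3 5hmC peak there.

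Dnmt3a, a de novo methyltransferase of many somatic and embryonic cells, had the most 5hmC peaks in iPS cells, over the longest interval. Per 100 kb it had 26.9 of them, against 30.0 at Dnmt1. There were 5 fibroblast, 20 day-3 and 35 iPS peaks of 5hmC, which covered 2.74, 18.4 and 27.0% of the interval, above 79.5, 92.7 and 92.3% of the windows. The 5mC peaks, 17, 27 and 9 in number, covered 15.1, 22.4 and 7.26%, above 91.0, 91.8 and 88.4% of the windows. Of its 42 merged 5hmC regions, 19 were found in iPS cells alone, 12 at day 3 and in iPS cells, 6 at day 3 alone and 2 at all 3 stages. Of its day-3 5hmC peaks, 30.0% met no other 5hmC list, against 49.3% in the genome. The 2 regions at all stages were chr12:3795245-3796212 and chr12:3825323-3827055. Tet3 had the other regions with 5hmC at all 3 stages, chr6:83351968-83354945 and chr6:83388196-83390466.

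At Dnmt3a a single stretch had both the largest 5hmC gain and the largest 5mC loss between fibroblasts and iPS cells, chr12:3865000-3874999. There 5hmC covered 7.28 kb in iPS cells, 3.69 kb at day 3 and none in fibroblasts. 5mC covered 0.484 kb of the stretch in iPS cells, 4.66 kb at day 3 and 2.84 kb in fibroblasts. The largest 5mC gain, 0.954 kb in iPS cells and none in fibroblasts, was at chr12:3835000-3844999. The stretch with the loss held the best-scoring fibroblast 5mC peak of the locus, chr12:3872823-3874718 (1896 bp). The best-scoring and widest day-3 5hmC peak, chr12:3821887-3825153 (3267 bp), lay elsewhere and met a peak in 1 other list. The best-scoring and widest iPS 5hmC peak, chr12:3893934-3897014 (3081 bp), covered the widest fibroblast 5mC peak, chr12:3894566-3896561.

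Dnmt3b, the de novo enzyme of pluripotent cells, had the fewest peaks and was the single locus listed at 0 in any list. The fibroblast list had 0 5hmC peaks there, the day-3 list 4 and the iPS list 7, which covered 5.19% of the interval at day 3 and 8.83% in iPS cells. Peaks of 5mC were 3, 9 and 0 in number and covered 3.63% in fibroblasts and 10.2% at day 3. The shares above 0 exceeded those of 57.8 to 70.3% of the windows, so Dnmt3b did not stand out in the lists that held it. Its highest score was 294 (the authors' peak caller's value), for the day-3 5hmC peak chr2:153476532-153477605, which met no other list. The scores of its 7 iPS 5hmC peaks ran from 57.2 to 141, and those of its 5mC peaks ran from 52.5 to 102, in lists that all end close to a score of 50. The best-scoring peaks of 3 lists lay together near 60 kb, as 5hmC in iPS cells at chr2:153520318-153521607 and as 5mC in fibroblasts at chr2:153520272-153521061 and at day 3. The largest 5hmC gain was at chr2:153460000-153469999, with 1.56 kb in iPS cells and none in fibroblasts. The largest 5mC loss was at chr2:153480000-153489999, listed at 0 in iPS cells and at 0.801 kb in fibroblasts.

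**Figure D3:**
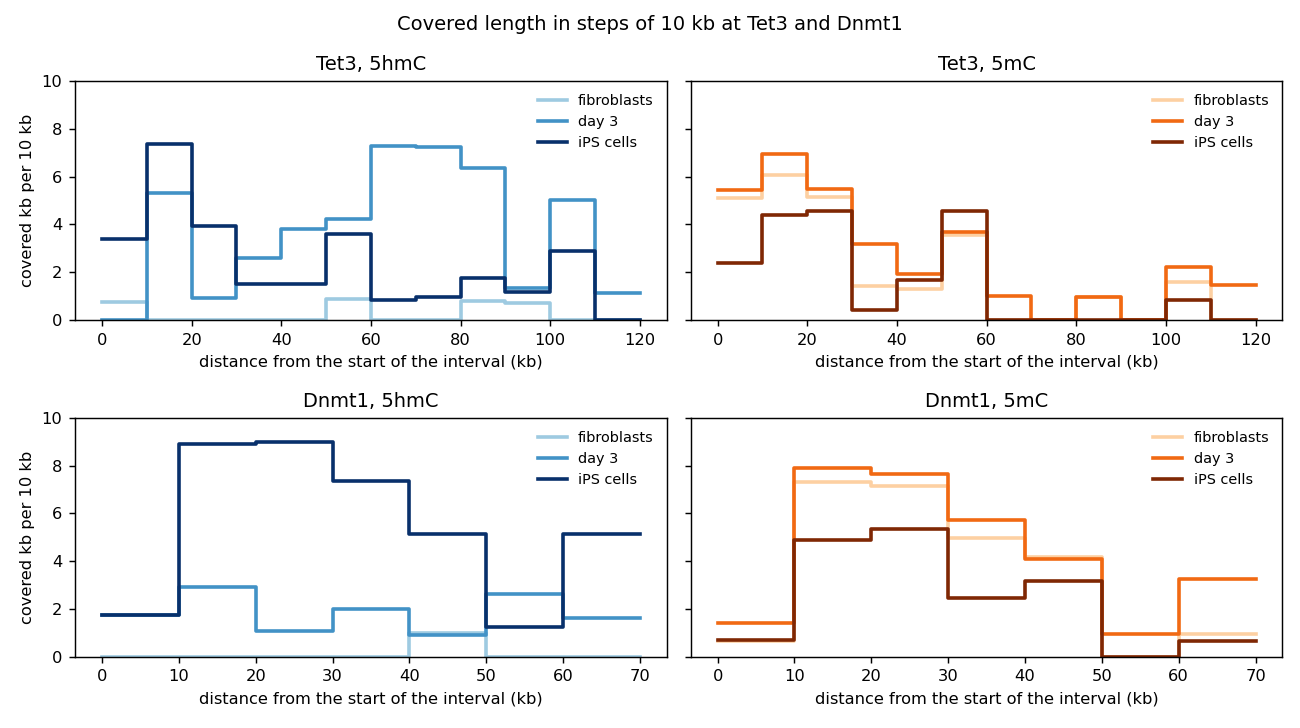
Covered length (kb) of 5hmC and 5mC in successive 10 kb stretches of Tet3 and Dnmt1, against distance from the interval start (kb), 1 line per stage. iPS 5hmC was highest at 20 to 30 kb of Dnmt1 (8.99 kb) and at 10 to 20 kb of Tet3 (7.37 kb), and day-3 5hmC was highest at 60 to 70 kb of Tet3 (7.28 kb).

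Covered length was then compared between stages as a fold with an offset of 5 bp per kb added to both stages, and a 2-fold difference was the limit for a count. At day 3 against fibroblasts, 5hmC was 2-fold or more higher at 5 of the 5 loci, as it was in 57.5% of the windows. It was lower by that much at none of the loci and in 17.2% of the windows. The log2 fold was 3.60 at Tet3, 3.28 at Dnmt1, 2.93 at Tet2 and 2.54 at Dnmt3a, with a median of 1.31 over the windows. Tet3 stood above 93.0% and Dnmt1 above 89.7% of the windows. Dnmt3b was listed at 0 in fibroblasts, so its 3.37 kb at day 3 has no fold and counts as higher through the offset. Once divided by the length of the list, 4 loci remained 2-fold or more higher, and Dnmt3a did not (log2 fold 0.81). A share of 57.5% in the windows means that the count at the loci is not particular to them.

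In iPS cells against day 3, the loci went different ways in 5hmC. Dnmt1 was the 1 locus of 5 with a 2-fold or more higher value, which 34.7% of the windows had, and no locus was lower by that much, against 17.5% of the windows. The log2 fold was 1.55 at Dnmt1 and -0.64 at Tet3, with a window median of 0.48. It was 0.30 at Tet2 and 0.54 at Dnmt3a, but -0.22 and 0.00 where each length was divided by that of its list, and -0.05 at Dnmt3a with equal numbers of peaks. It was 0.71 at Dnmt3b, but -0.45 with a score of at least 100 and -2.77 with equal numbers of peaks. Of the 5 loci, Dnmt1 and Tet3 kept their direction under these 3 settings.

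In iPS cells against fibroblasts, 5hmC was 2-fold or more higher at 5 of 5 loci and in 64.6% of the windows, and lower by that much at no locus and in 9.18% of the windows. The log2 fold was 4.84 at Dnmt1, 3.22 at Tet2, 3.08 at Dnmt3a and 2.96 at Tet3, against a window median of 1.62. Dnmt1 exceeded 98.2% of the windows. The other 3 exceeded 80.1 to 84.6% of them. Once divided by the length of the list, 3 loci were 2-fold or more higher, and Tet3 and Dnmt3a were not. Dnmt3b had 5.74 kb in iPS cells and was listed at 0 in fibroblasts, and when each list was cut to the same number of best-scoring peaks, it was listed at 0 at both stages.

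5mC moved less between fibroblasts and day 3. Covered length was 2-fold or more higher at day 3 at 1 of 5 loci, Dnmt3b (log2 fold 1.37, but listed at 0 at both stages with equal numbers of peaks), against 30.2% of the windows, and lower by that much at none, against 1.20%. At Tet2, Tet3, Dnmt1 and Dnmt3a the log2 fold was 0.35, 0.35, 0.29 and 0.55, but -0.23, -0.25, -0.32 and -0.05 once divided by the length of the list, and -0.34 at Tet2 with equal numbers of peaks. The window median was 0.66. With equal numbers of peaks the log2 fold stayed positive at Tet3 (0.29), Dnmt1 (0.10) and Dnmt3a (0.83). Division by the length of the list thus turned the direction at these 4 loci, and equal numbers turned it at Tet2 alone.

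In iPS cells against day 3, 5mC was 2-fold or more lower at 3 of 5 loci and in 75.0% of the windows, and higher by that much at no locus and in 0.968% of the windows. The 3 loci were Dnmt3a (log2 fold -1.56), Tet2 (-1.55) and Dnmt3b, which was listed at 0 in iPS cells against 6.60 kb at day 3. Both folds were close to the window median of -1.40, and both calls ended once divided by the length of the list (-0.11 at Dnmt3a and -0.19 at Tet2). Both remained with equal numbers of peaks (-1.07 at Dnmt3a and -1.84 at Tet2) and with a score of at least 100 (-1.74 and -3.92). With equal numbers of peaks Dnmt3b was listed at 0 at both stages. At Dnmt1 and Tet3 the log2 fold was -0.83 and -0.76, but 0.66 and 0.72 once divided by the length of the list. Both loci therefore lost less covered length than the list as a whole.

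In iPS cells against fibroblasts, the same 3 loci were 2-fold or more lower in 5mC, against 44.5% of the windows, and no locus was higher by that much, against 4.52% of the windows. The log2 fold was -1.20 at Tet2 and -1.01 at Dnmt3a, with a window median of -0.88, and Dnmt3b was listed at 0 in iPS cells against 2.36 kb in fibroblasts. The calls at Tet2 and Dnmt3a ended once divided by the length of the list (-0.41 and -0.16) and with an offset of 20 bp per kb (-0.92 and -0.88). With equal numbers of peaks the call ended at Dnmt3a (-0.23) and remained at Tet2 (-2.17). Both calls remained with a score of at least 100 (-3.60 at Tet2 and -1.02 at Dnmt3a). Dnmt3b was listed at 0 at both stages with a score of at least 100 or equal numbers. At Dnmt1 and Tet3 it was -0.54 and -0.41, but 0.34 and 0.46 once divided by the length of the list. The 3 comparisons of a mark share libraries, so their values are not independent of each other.

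**Figure D4:**
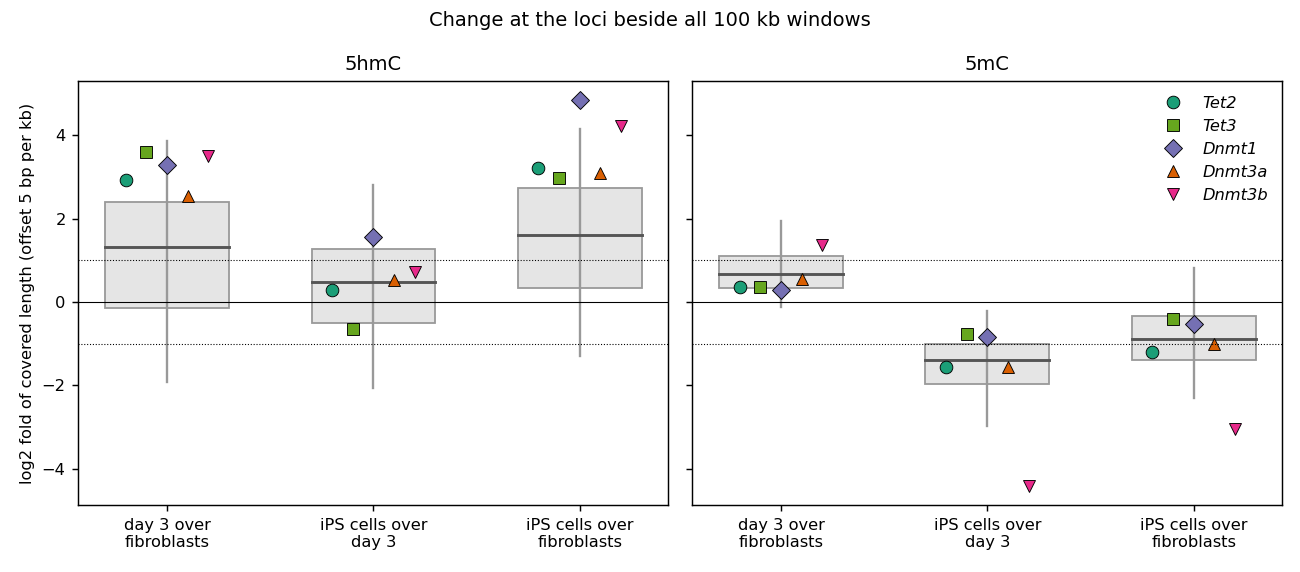
Log2 fold of covered length between stages (y axis, offset of 5 bp per kb) for 5hmC and 5mC at the 5 loci as points, over grey boxes with the median, quartiles and the 5th to 95th percentiles of the autosomal 100 kb windows. Dnmt1 lay at 4.84 in 5hmC for iPS cells over fibroblasts, against a window median of 1.62; points of Dnmt3b that rest on a list at 0 depend on the offset, and directions near 0 turn when lengths are divided by that of the list.

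The overlap of the marks within a stage was read next, counting peaks that share at least 1 bp. Of the 5hmC peaks at the 5 loci, 8 of 11 lay on a 5mC peak in fibroblasts (72.7%, 95% Wilson interval 43.4 to 90.3). The share was 32 of 75 at day 3 (42.7%, 32.1 to 53.9) and 34 of 94 in iPS cells (36.2%, 27.2 to 46.2). Over the whole genome the shares were 27.2, 40.4 and 23.5%. With a score of at least 100 the fibroblast share at the loci was 33.3%, and with equal numbers of peaks the shares were 27.3, 28.6 and 46.4%. The order of stages thus depends on the setting. Shares of the genome were not computed under these settings, so whether the fibroblast gap from the genome remains was not tested. Intervals cover counting error only, and neighbouring peaks of a locus share its CpG content. The loci also carried denser 5mC than the genome, and its part in these shares was not tested.

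Seen from 5mC, coverage by 5hmC was far broader in iPS cells. Of the length under 5mC peaks, 5hmC also covered 7.55% at the fibroblast stage, 25.2% at day 3 and 80.2% in iPS cells. The genome moved the same way: by peaks, 12.9, 34.8 and 90.2% of 5mC peaks at the loci lay on 5hmC of their stage, against 11.1, 28.8 and 67.2% of the whole lists. By length again, the share of 5mC under 5hmC was 4.02, 17.8 and 91.6% at Dnmt1 and 9.46, 11.9 and 86.4% at Tet2. It was 8.99, 35.6 and 74.0% at Tet3 and 10.4, 29.6 and 69.8% at Dnmt3a. Counted by peaks, 37 of the 41 iPS 5mC peaks at the loci lay on an iPS 5hmC peak (Wilson interval 77.5 to 96.1%). The remaining 5mC of iPS cells at these loci was thus mostly found under 5hmC peaks as well. Peak lists do not say whether both marks were on the same molecules or in different cells.

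The 62 fibroblast 5mC peaks of the loci were followed to iPS cells. There, 18 met 5hmC alone (29.0%, 19.2 to 41.3), 35 met both marks (56.5%, 44.1 to 68.1), 2 met 5mC alone (3.23%) and 7 met neither (11.3%). Over the whole fibroblast 5mC list these shares were 37.1, 30.0, 9.32 and 23.5%. Meeting both marks was the commonest state at Dnmt1 (12 of 16 peaks), Tet3 (13 of 19) and Tet2 (4 of 7). Over all loci the order turned with a score of at least 100, with 44.7% meeting 5hmC alone and 39.5% both. At Dnmt3a, 6 of 17 peaks met 5hmC alone, 6 both, 1 5mC alone and 4 neither. An iPS 5hmC peak was met by 16 of 16 fibroblast 5mC peaks at Dnmt1, 7 of 7 at Tet2, 17 of 19 at Tet3, 12 of 17 at Dnmt3a and 1 of 3 at Dnmt3b, and by 67.2% of the whole list. Such peaks covered 55.1% of the Dnmt1 interval and 24.1% of that of Tet3, against 7.71% of the autosomes. The part of this density in the shares was not tested.

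**Figure D5:**
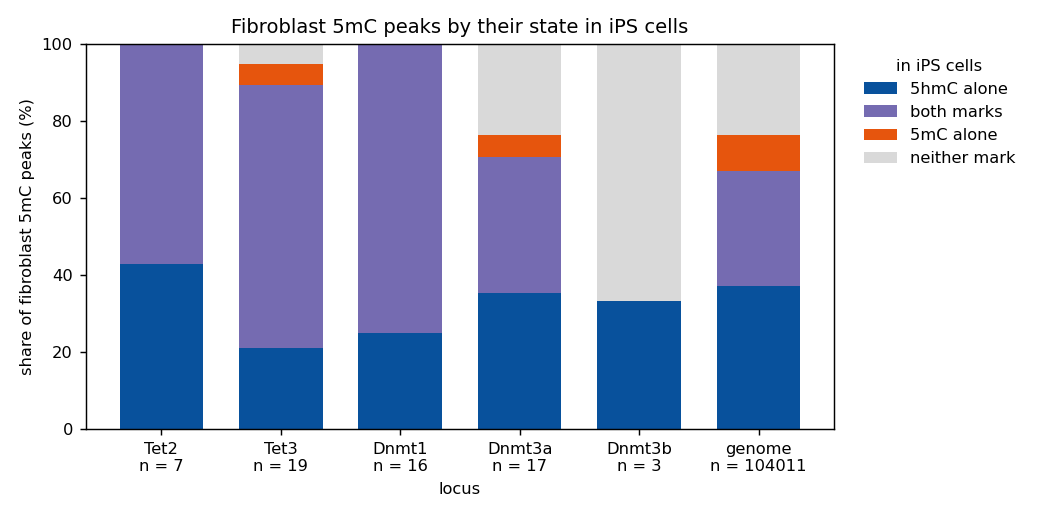
State in iPS cells of the fibroblast 5mC peaks at each locus, as shares of these peaks (%) with 5hmC alone, both marks, 5mC alone or neither mark, beside the whole fibroblast 5mC list. Both marks were met by 12 of 16 peaks at Dnmt1 and 13 of 19 at Tet3, against 30.0% in the whole list.

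Day-3 5hmC peaks differed by whether they lay on fibroblast 5mC. Of 27 that did, 23 met an iPS 5hmC peak (85.2%, 67.5 to 94.1), as did 81.1% of such peaks in the genome. Of 48 that did not, 19 met one (39.6%, 27.0 to 53.7), as did 35.9% in the genome. At Tet3 the counts were 9 of 11 on fibroblast 5mC and 5 of 18 off it, whereas at Dnmt3a they were 5 of 7 and 9 of 13. The loci together were close to the genome in both shares. Over all 5 loci, 41 of 75 day-3 5hmC peaks lay on no 5mC peak of any stage (54.7%), near the genome's 56.1%.

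Merged over the 3 stages, the loci held 129 5hmC regions and 89 5mC regions. Of the 5hmC regions, 49 were found in iPS cells alone, 33 at day 3 alone, 3 in fibroblasts alone, 36 at day 3 and in iPS cells, 4 in fibroblasts and iPS cells, and 4 at all stages. Counted by peaks, 33 of 75 day-3 5hmC peaks met no other 5hmC list (44.0%, against 49.3% in the genome), and 41 of 94 iPS peaks met day-3 5hmC (43.6%, against 32.9%). Of the 5mC regions, 33 were found at all 3 stages, 23 in fibroblasts and at day 3, 25 at day 3 alone, 5 at day 3 and in iPS cells, 2 in fibroblasts alone and 1 in iPS cells alone, at Tet3. The regions with 5mC at all 3 stages numbered 12 at Tet3, 10 at Dnmt1, 7 at Dnmt3a, 4 at Tet2 and 0 at Dnmt3b. With all 6 lists merged, 137 regions resulted, of which 52 belonged to 1 list and 2 to all 6. Regions join peaks that overlap in a chain, so not every pair of lists overlaps within them. These 2 were chr6:83351968-83356886 at Tet3 and chr9:20745056-20748771 at Dnmt1.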

How the data were processed

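DNA of 6 libraries, from 3 stages with 2 marks each, was ligated to adapters and immunoprecipitated. Per the labels' protocols, 500 ng entered each reaction, 14 to 16 cycles of amplification followed, and fragments of 300 to 500 bp were purified. The build mm9, MACS 1.4.1, Bowtie 0.12.7 and CASAVA 1.8 are listed in the submitters' processing notes. Each deposited list gives, per peak of 1 library, a position and a score that the authors' peak caller wrote, used here only for ranking and filtering inside 1 list. The lowest score was 50.00 or 50.01. Controls, settings, duplicate handling and read numbers were not given in the sources used here, so depth is unknown.

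Groups came from the titles in the labels, with 1 library per stage and mark. Coordinates are counted from 1. Peaks with at least 1 bp in an interval were counted, and covered length was clipped at its ends. Folds used an offset of 5 bp per kb on both sides. Overlaps needed 1 bp, and shares have 95% Wilson intervals. The background was 21459 tiled autosomal windows of 100 kb with any peak. A comparison tested the windows with a peak in either of its lists. The text names the best-scoring and widest peak of each list and locus, regions with peaks at all 3 stages, and the 10 kb stretches with the largest gain and loss of a mark. Regions with 5mC at all stages are counted, and several of the other named peaks are summarised. The loci and these rules were chosen with earlier results of these data known. Alternatives were a score of at least 100, the best-scoring 42301 peaks of each list, peaks within 1000 bp joined, division by the covered length of the list, other offsets (1 and 20 bp per kb), windows (50 and 200 kb), interval borders and overlap rules. Scripts used matplotlib 3.10.9, scipy 1.17.1, pandas 2.3.3, numpy 2.4.6 and Python 3.11.15, and the counting was tested on simulated data.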

Additional observations from a re-analysis of the deposited data

Results flagged for a closer look

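At each of the 5 loci the marks moved in opposite directions between fibroblasts and iPS cells. How far the marks differ in this was not tested, since each value is a difference between single libraries. 5hmC covered 10.4 kb more in iPS cells than in fibroblasts at Tet2, 25.7 kb more at Tet3, 37.5 kb more at Dnmt1, 31.5 kb more at Dnmt3a and 5.74 kb more at Dnmt3b. The iPS minus fibroblast difference in 5mC was -4.49 kb at Tet2, -6.36 kb at Tet3, -7.95 kb at Dnmt1, -10.2 kb at Dnmt3a and -2.36 kb at Dnmt3b. The lists of the whole genome moved the same way, and at Tet3 and Dnmt1 the 5mC direction turned when lengths were divided by that of the list. With equal numbers of peaks, both marks were listed at 0 at Dnmt3b in fibroblasts and in iPS cells. Its 5mC was so listed with a score of at least 100 as well.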

How the results depend on the processing

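No paired analysis was possible because each stage and mark had 1 library and the labels carry no replicate numbers. With a score of at least 100, peaks at the loci numbered 3 in fibroblasts and 50 in iPS cells for 5hmC, and 38, 60 and 19 over the stages for 5mC. 5hmC then covered 2.35 kb in fibroblasts and 5mC covered 30.4 kb in iPS cells. With equal numbers of best-scoring peaks, 5hmC peaks numbered 35 at day 3 and 28 in iPS cells (58.6 and 57.4 kb), and 5mC peaks 35 in fibroblasts and 43 at day 3 (66.9 kb at day 3). The order of day 3 and iPS cells in summed 5hmC therefore depends on this setting. With peaks joined, 59 5hmC peaks remained in iPS cells, and 39 and 53 5mC peaks in fibroblasts and at day 3. Loci 2-fold or more lower in 5hmC in iPS cells than at day 3 numbered 1 by score, 2 with equal numbers and 1 divided by list length. Division by list length left 3 loci higher in iPS 5hmC than in fibroblasts, 0 higher in day-3 5mC, and 1 lower in iPS 5mC than at day 3 and 1 than in fibroblasts. Equal numbers left 0 higher in day-3 5mC and 1 lower in iPS 5mC than in fibroblasts, as did the offset of 20 bp per kb (1). By score, 5 loci were lower in iPS 5mC than at day 3. Loci above 90% of the windows in 5hmC became 1 at day 3 and 1 in iPS cells, both by score and with equal numbers. The share of 5hmC peaks on 5mC was 33.3% (score) and 27.3% (equal numbers) in fibroblasts, 28.6% (equal numbers) at day 3, and 24.0% (score), 46.4% (equal numbers) and 24.5% (50% overlap) in iPS cells. Fibroblast 5mC peaks with 5hmC alone in iPS cells made up 44.7% by score. Those with both marks made up 39.5% by score, 42.9% with equal numbers and 40.3% with 50% overlap, and those with 5mC alone 20% with equal numbers. The cause of these shifts was not tested. Unknown depth limits every comparison of lengths between lists.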
